A study of Homo sapiens with 4 samples.

Results

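Axon guidance ligands and receptors were examined in the established human neuroblastoma line SK-N-BE(2), which carries amplified MYCN, after knockdown of METTL14. They were chosen by gene symbol: protein-coding genes of the SEMA, PLXN, EFNA, EFNB, EPHA, EPHB, ROBO and UNC5 families, with SLIT1 to SLIT3, NTN1, NTN3, NTN4, NRP1, NRP2 and DCC. This gave 71 of the 60671 genes in the table, among 83 symbol matches, of which 12 were antisense, noncoding or pseudogene entries. The pattern also caught UNC50 and UNC5CL, which are not netrin receptors, and the readthrough gene EFNA4-EFNA3, so 68 were single guidance ligands or receptors.

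Cells carried a control short hairpin RNA (shNC, 2 libraries) or a hairpin against METTL14 (shMETTL14, 2 libraries), with no other treatment labelled. METTL14 is a partner of METTL3 in the enzyme complex that writes N6-methyladenosine (m6A) into RNA. The study's methods describe hairpins carried by lentivirus in a puromycin-selected line, while the series' design text speaks of transfection. The labels do not say which METTL14 hairpin the libraries carried, nor whether replicates came from separate cultures, so p-values measure only the spread between these libraries, which may be technical. METTL14 had 753 and 754 counts in the shNC libraries and 303 and 321 in the shMETTL14 libraries. It fell by 1.26 in log2 units (adjusted p = 3.6e-11 by edgeR's quasi-likelihood test, with an SE of 0.0832), from 38.6 ± 1.13 to 16.1 ± 0.851 CPM, the counts scaled to library size (mean ± SD, n = 2). The knockdown was thus partial, at 41.7% of the control level.

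Depth ranged from 18925786 to 19886214 gene counts. The cells expressed the noradrenergic neuroblastoma markers (11 of 11 measured, summed level 6870 to 7020 CPM in shNC and 7170 to 7230 CPM in shMETTL14 libraries). Of 8 mesenchymal markers, 7 were measured and PRRX1 was at 3 counts or fewer in every library; their summed level was 2610 to 2660 CPM in shNC and 2640 to 2700 CPM in shMETTL14 libraries. Much of the noradrenergic sum came from MYCN (mean 2620 CPM in shNC and 3170 in shMETTL14 libraries) and STMN2 (1100 and 1400). Most of the mesenchymal sum came from VIM (1940 and 1980). Single markers moved both ways. Higher were 3 noradrenergic (27.3%) and 2 mesenchymal ones (28.6%), against 27.2% of all tested genes. Lower were 7 (63.6%) and 4 (57.1%), against 25.3%. Of 9 markers of other cell types, CD3E, CD68, PECAM1, CDH5 and ALB had at most 4 counts in any library. The summed level of these 9 was 20.1 and 20.7 CPM in shNC and 13.8 and 14.9 CPM in shMETTL14 libraries, mostly from COL1A1, EPCAM and PTPRC. The part of these markers in the results was not tested.

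Guidance cues steer growing axons and migrating cells, neural crest cells among them, from which neuroblastoma arises. Semaphorins act through plexins, with neuropilins as co-receptors for most secreted class 3 semaphorins. Membrane-bound ephrins bind EPH receptor tyrosine kinases on neighbouring cells, and signals run in both directions. SLITs are secreted repellents that bind ROBO receptors, and netrins attract through DCC or repel with the help of UNC5 receptors.

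The promoter sequences of PLXNA4, PLXNA2, EFNB2 and SEMA5A are shown because these genes include the 3 with the largest increases and an abundant one that fell. Each is the 250 bases before the RefSeq start on GRCh38.p14, read 5′ to 3′ on the gene's strand, which is the minus strand for all 4. Capitals mark the GC box, spelled GGGCGG, the promoter box CCAAT and the E-box, spelled CACGTG, searched on both strands. PLXNA4 lies at chr7:132576471-132576720 and holds none of these words, PLXNA2 at chr1:208244385-208244634, EFNB2 at chr13:106535663-106535912 and SEMA5A at chr5:9546076-9546325. The PLXNA4 stretch, from the only RefSeq start held for it, lies inside the gene's annotated span (chr7:132123332-132648688). The sequence before the upstream end of that span was not examined.
PLXNA4: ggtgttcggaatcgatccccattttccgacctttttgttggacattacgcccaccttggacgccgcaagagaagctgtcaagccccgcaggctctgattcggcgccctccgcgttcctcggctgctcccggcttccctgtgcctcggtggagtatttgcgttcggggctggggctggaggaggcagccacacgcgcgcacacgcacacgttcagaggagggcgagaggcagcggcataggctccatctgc
PLXNA2: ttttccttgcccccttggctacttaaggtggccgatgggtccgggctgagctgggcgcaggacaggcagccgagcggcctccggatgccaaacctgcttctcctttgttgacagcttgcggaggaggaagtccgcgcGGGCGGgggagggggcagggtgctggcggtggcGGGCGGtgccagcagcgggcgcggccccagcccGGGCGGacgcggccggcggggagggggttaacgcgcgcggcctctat
EFNB2: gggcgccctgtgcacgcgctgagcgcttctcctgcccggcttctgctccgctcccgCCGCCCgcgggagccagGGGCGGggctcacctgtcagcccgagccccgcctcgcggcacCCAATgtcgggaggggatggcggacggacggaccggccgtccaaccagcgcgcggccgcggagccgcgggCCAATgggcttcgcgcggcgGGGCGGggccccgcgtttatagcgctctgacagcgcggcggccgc
SEMA5A: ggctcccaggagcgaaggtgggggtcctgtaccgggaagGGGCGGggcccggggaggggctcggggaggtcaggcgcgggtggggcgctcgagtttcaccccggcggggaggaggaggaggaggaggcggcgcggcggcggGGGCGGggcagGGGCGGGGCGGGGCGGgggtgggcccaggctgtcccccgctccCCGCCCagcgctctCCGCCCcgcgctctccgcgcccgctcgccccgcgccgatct

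Promoters were found for 61 of the 71 genes, 93 in all. The GC box was present in 71.0% of them and in 42.6% of 35116 RefSeq promoters of the same length. It was present in 9 of 13 promoters of genes that rose and 22 of 31 of genes that fell. SEMA5A, the only gene shown that fell, held 7 such boxes. Of others that fell, EPHB3 held 3 and SEMA3E held 0 in each of its 2 promoters. The CCAAT box was in 30.1% of the guidance promoters and 32.0% of all promoters, in 5 of 13 of genes that rose and 7 of 31 of genes that fell. The E-box was in 4.3% against 6.34%, in 0 of 13 and 2 of 31. These matches are descriptions of letters only, and which start sites the cells used was not measured.

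Of the 71 genes, 56 were expressed highly enough to test, and 37 of them (66.1%) were called at an adjusted p under 0.05, compared with 52.5% of all 16309 genes tested. Increases numbered 14 (25.0%, against 27.2% of all genes) and decreases 23 (41.1%, against 25.3%). A change of at least 2-fold was called in 14 (25.0%, against 8.79%), with 5 higher (background 2.8%) and 9 lower (background 5.99%). The median log2 fold change was -0.11, beside -0.000953 over all genes, and the median absolute change was 0.43 beside 0.3. The split into higher and lower depended on the settings. Of the calls, 37.8% were higher here and under RLE scaling, 26.5% under upper quartile scaling and 28.6% by library size alone. With DESeq2, which called 36.9% of all genes, the share was also 28.6%. The 2-fold counts stayed at 5 and 9 under each. Over all genes, 4438 of the 8561 calls in the reported fit were higher, and the all-gene split is not given for the other settings. Upper quartile scaling moved all well-expressed genes by -0.0676 in log2 units, and library size alone by -0.0451. Leaving out UNC50, UNC5CL and EFNA4-EFNA3, a choice made after seeing the data, left 36 calls and 14 of at least 2-fold.

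**Figure D1:**
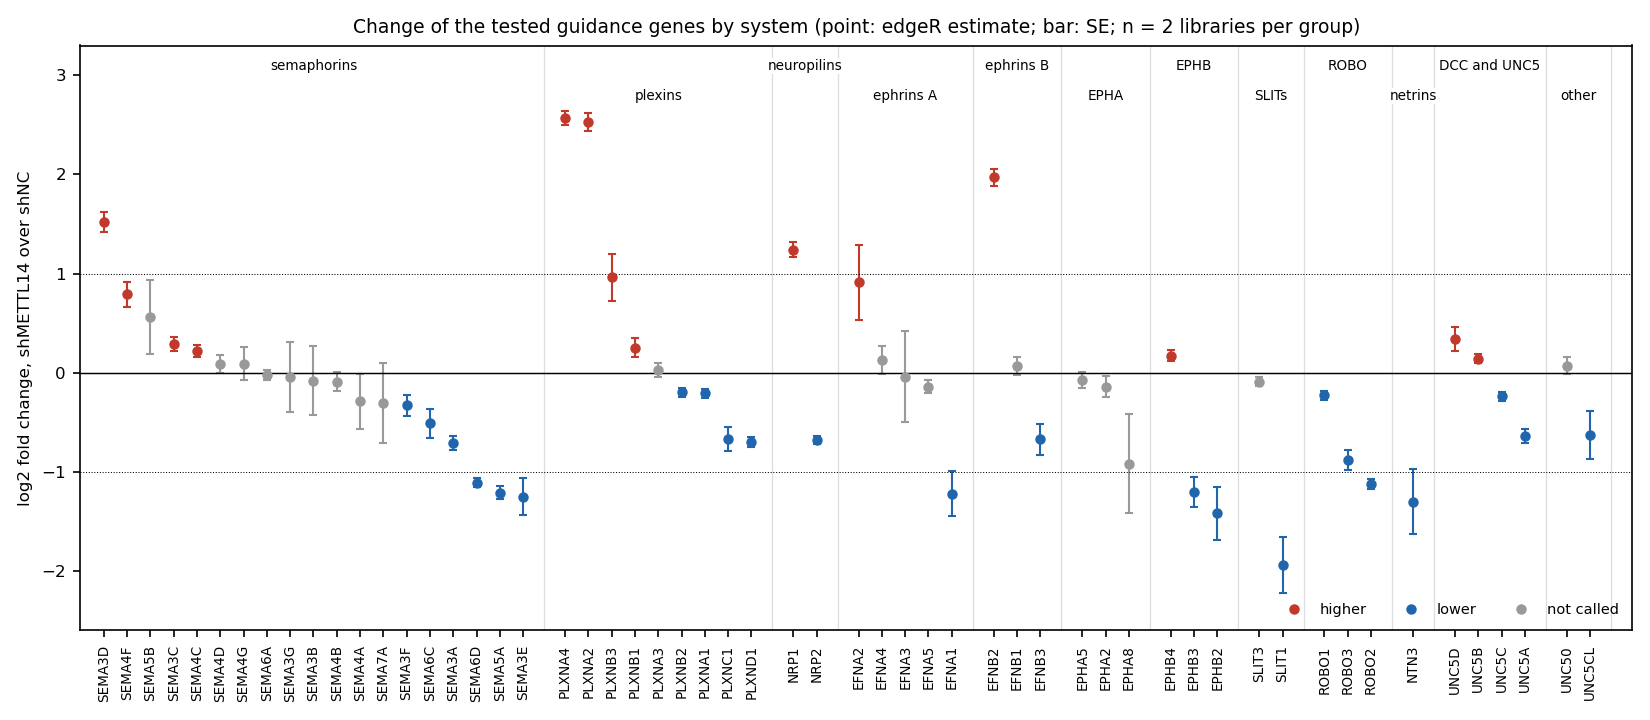
Log2 fold change of each of the 56 tested genes (y axis, shMETTL14 over shNC; points are edgeR estimates, bars are SE, dotted lines mark a 2-fold change), grouped by system along the x axis and coloured by call. PLXNA4, PLXNA2 and EFNB2 lie highest, at 2.57, 2.53 and 1.97, and SLIT1 lowest, at -1.94.

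Among ligands, 16 of 30 tested were called (53.3%, near the 52.5% of all genes), with 6 higher and 10 lower. Among receptors 20 of 24 were called (83.3%), with 8 higher (33.3%, against 27.2% of all genes) and 12 lower (50.0%, against 25.3%). In bulk RNA, fewer cells with a transcript and less transcript per cell cannot be told apart.

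Of 19 semaphorins tested, 4 rose (21.1%, against 27.2% of all genes) and 6 fell (31.6%, against 25.3%). The share called, 52.6%, was near the 52.5% of all genes. The called members of class 3 went in both directions, while those of class 4 rose and those of classes 5 and 6 fell. SEMA3D, a secreted class 3 cue, had 182 and 190 counts in the shNC libraries and 554 and 506 in the shMETTL14 libraries. It was higher in both knockdown libraries and rose 2.86-fold (log2 fold change 1.52, adjusted p = 3.2e-11, with an SE of 0.0993), from 9.53 ± 0.559 to 27.3 ± 1.42 CPM (n = 2). SEMA3C rose by a log2 fold change of 0.29. In contrast, SEMA3E, the secreted ligand of PLXND1, had 136 and 132 counts in shNC and 61 and 51 in shMETTL14 libraries. It fell by 1.25 in log2 units (adjusted p = 5.8e-06, with an SE of 0.183), from 6.86 ± 0.0495 to 2.88 ± 0.329 CPM. SEMA3A, the growth-cone collapsing cue, fell by 0.71, from 1143 and 1204 counts to 754 and 674, and SEMA3F, which acts mainly through NRP2, fell by 0.33. SEMA3B and SEMA3G were low (22 to 31 counts in every library) and were not called.

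Of the genes on chromosome 7, SEMA3C, SEMA3E, SEMA3A and SEMA3D follow each other in that order among the guidance genes, from position 80742538 to 85186855 on GRCh38. The outer pair rose and the inner pair fell, and SEMA3A and SEMA3D, which went in opposite directions, lie 503 kb apart.

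Among the membrane-bound semaphorins, the larger changes were decreases. SEMA6D, a transmembrane ligand of PLXNA1, had 3030 and 2888 counts in shNC and 1356 and 1366 in shMETTL14 libraries. It fell by 1.11 in log2 units (adjusted p = 1.9e-14, with an SE of 0.0458), from 151.0 ± 0.849 to 70.1 ± 1.22 CPM. SEMA5A, a transmembrane cue with thrombospondin repeats, had 1430 and 1368 counts against 582 and 623. It fell by 1.21 (adjusted p = 8.8e-13, with an SE of 0.0633), from 71.6 ± 0.215 to 31.0 ± 1.87 CPM. For both genes the groups lay far apart relative to the gap between replicates. SEMA6A, a transmembrane ligand of PLXNA2 and PLXNA4, was not called, with a log2 difference of -0.02 (95% interval -0.12 to 0.09). SEMA6C fell by 0.51. In class 4, SEMA4F rose by 0.79 and SEMA4C by 0.22, and SEMA4A, SEMA4B, SEMA4D and SEMA4G were not called, with differences from -0.29 to 0.09.

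The plexins, the signal-transducing receptors of semaphorins, held the largest increases. All 9 were tested, with 4 higher (44.4%, against 27.2% of all genes) and 4 lower (44.4%, against 25.3%). PLXNA4 (chr7:132123332-132648688 on GRCh38) had 339 and 280 counts in the shNC libraries and 1893 and 1749 in the shMETTL14 libraries. It rose 5.93-fold (log2 fold change 2.57, adjusted p = 4.4e-17, with an SE of 0.0722), from 15.8 ± 1.69 to 93.8 ± 4.1 CPM (n = 2). PLXNA2 (chr1:208022242-208244320) had 215 and 179 counts against 1180 and 1089. It rose 5.8-fold (log2 fold change 2.53, adjusted p = 8.5e-16, with an SE of 0.0876), from 10.1 ± 1.02 to 58.4 ± 2.6 CPM. In each gene the lowest knockdown library was far above the highest control library. PLXNA1 fell by 0.21 and PLXNA3 was not called (0.03, 95% interval -0.12 to 0.18).

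The remaining plexins moved less. PLXND1, the receptor of SEMA3E, had 1933 and 1760 counts in shNC and 1166 and 1097 in shMETTL14 libraries. It fell by 0.7 in log2 units (adjusted p = 3.0e-10, with an SE of 0.0522), from 94.4 ± 3.58 to 58.3 ± 1.8 CPM, so this ligand and its receptor were both lower. PLXNC1, the receptor of SEMA7A, fell by 0.67, and SEMA7A itself was not called. PLXNB3 rose by 0.96 from 44 and 38 counts, and shares exon bases with SRPK3. PLXNB1 rose by 0.25, called in 4 of 7 alternative settings, and PLXNB2 fell by 0.2.

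The neuropilins went in opposite directions. NRP1 (chr10:33177492-33336262), a co-receptor for SEMA3A that also binds VEGF, had 411 and 423 counts in shNC and 942 and 1020 in shMETTL14 libraries. It rose 2.37-fold (log2 fold change 1.24, adjusted p = 1.7e-11, with an SE of 0.0782), from 21.4 ± 1.04 to 50.6 ± 3.46 CPM. NRP2 fell by 0.68 (adjusted p = 2.3e-11, with an SE of 0.0435), from 3636 and 3364 counts to 2207 and 2134. Both genes share exon bases with an antisense gene.

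**Figure D2:**
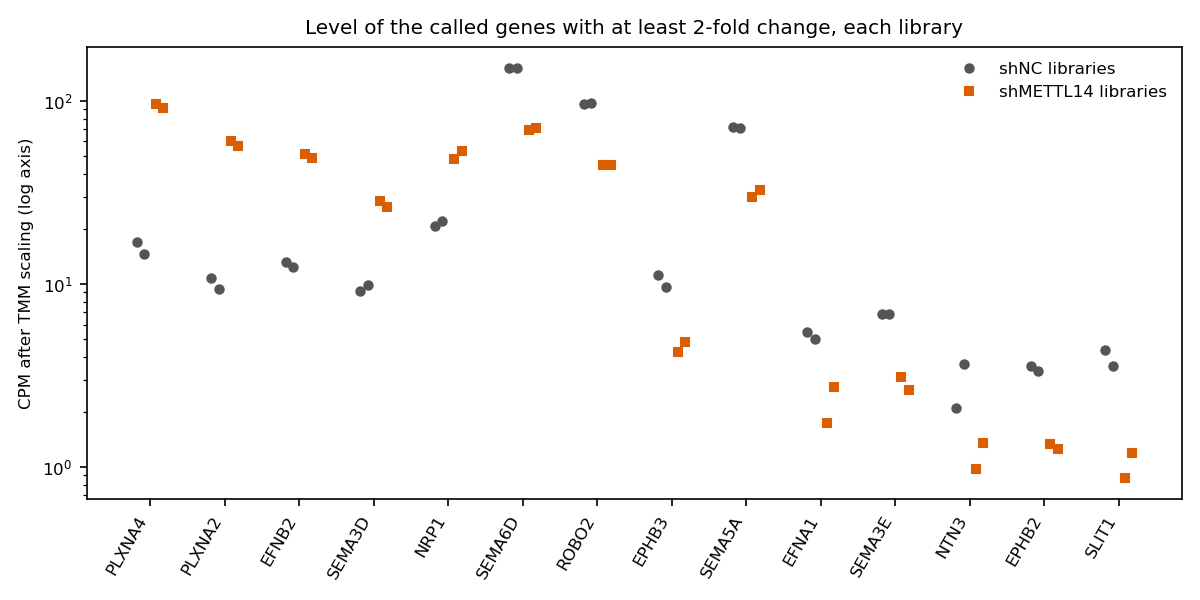
Level in CPM (log axis) of the 14 called genes with at least 2-fold change, with each point a library (circles shNC, squares shMETTL14). The mean of PLXNA4 goes from 15.8 to 93.8 CPM and that of SEMA6D from 151.0 to 70.1 CPM.

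Dividing each gene's CPM by the length of its exons in kilobases gave a level that can be set side by side between genes. On this scale NRP1 made up 12.0% and 13.2% of the neuropilin level in the shNC libraries and 34.0% and 36.6% in the shMETTL14 libraries, while the summed level of both went from 14.7 to 12.4 CPM per kilobase. The sums depend on the length used: per kilobase of the longest coding transcript the neuropilin sum was 30.5 and 25.4 CPM, and the mean NRP1 share went from 11.9% to 33.9%. Among class A plexins, PLXNA1 held 69.3% and 72.1% of the level in shNC and 44.1% and 46.6% in shMETTL14 libraries. PLXNA4 went from 5.48% and 4.8% to 23.0% and 22.2%, and PLXNA2 from 4.13% and 3.65% to 17.0% and 16.4%. The summed class A level went from 18.8 to 25.3 CPM per kilobase. Even after their increases, PLXNA4 and PLXNA2 each remained below PLXNA1. For class 3 semaphorins the sum was 18.2 and 17.9 CPM per kilobase, with SEMA3D going from 6.31% and 6.69% to 19.3% and 18.4% and SEMA3A from 34.1% and 36.5% to 22.6% and 21.1%.

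**Figure D3:**
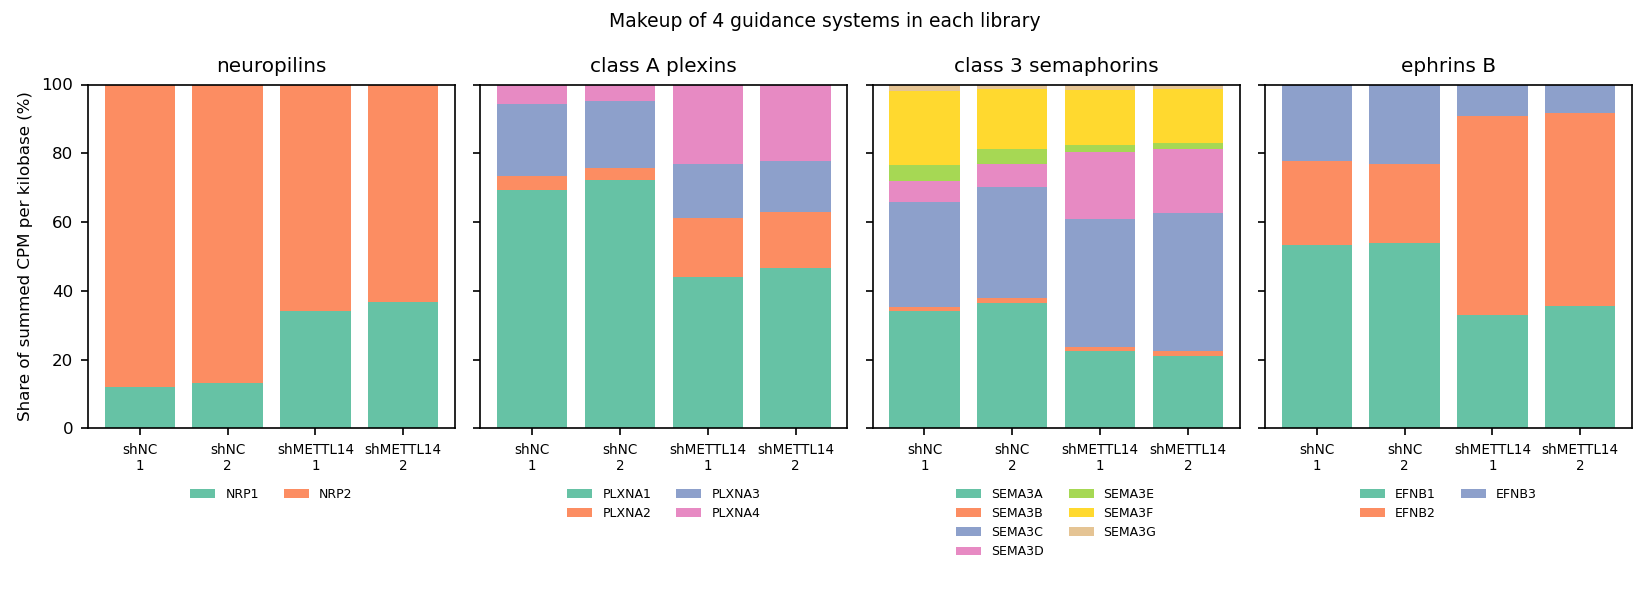
Share of the summed CPM per kilobase (y axis, percent) that each gene held in each of the 4 libraries, for neuropilins, class A plexins, class 3 semaphorins and ephrins B. NRP1, PLXNA2, PLXNA4, SEMA3D and EFNB2 hold a larger share in both shMETTL14 libraries than in either shNC library.

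In the ephrin system, 1 ligand stood out. EFNB2 (chr13:106489731-106535662), a transmembrane ephrin that binds EPHB4 and other EPHB receptors, had 262 and 237 counts in shNC and 1005 and 944 in shMETTL14 libraries. It rose 3.93-fold (log2 fold change 1.97, adjusted p = 2.2e-14, with an SE of 0.0824), from 12.8 ± 0.543 to 50.2 ± 1.61 CPM. EFNB2 shares exon bases with an antisense gene (AL138689.2). EFNB3 fell by 0.67, and EFNB1 was not called (0.07, 95% interval -0.12 to 0.25). EFNB2 thereby went from 24.5% and 23.0% to 58.0% and 56.2% of the ephrin B level per kilobase, and became the highest of the 3.

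Among the GPI-anchored ephrins A, EFNA1 had 109 and 96 counts in shNC and 34 and 53 in shMETTL14 libraries. It fell by 1.22 in log2 units (adjusted p = 1.0e-04, with an SE of 0.226), from 5.24 ± 0.322 to 2.25 ± 0.719 CPM. EFNA2 was low (24 and 13 against 28 and 41 counts) and rose by 0.91 just inside the threshold (adjusted p = 0.0488), a call kept in 3 of 7 alternative settings. EFNA3, EFNA4 and EFNA5 were not called, with EFNA5, the most abundant per kilobase, at -0.14 (95% interval -0.28 to 0.01). EFNA3 and EFNA4 share exons with a readthrough gene, so reads between them may have been dropped.

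EPH receptors were mostly low or absent. Of 9 EPHA receptors only EPHA2, EPHA5 and EPHA8 could be tested, and 0 were called by edgeR, against 52.5% of all genes. EPHA2 differed by -0.14 (95% interval -0.37 to 0.09), EPHA5 by -0.07 (-0.23 to 0.1) and EPHA8, at 7 to 31 counts, by -0.92 (-1.96 to 0.11). DESeq2 called 0 of the 3 as well, and 0 had an unadjusted p under 0.05 in edgeR. EPHA3 had 0 counts in every library, and EPHA1, EPHA4, EPHA6, EPHA7 and EPHA10 had at most 7.

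EPHB2 and EPHB3 fell while EPHB4 rose slightly. EPHB2 had 71 and 64 counts in shNC and 26 and 24 in shMETTL14 libraries, and fell by 1.42 in log2 units (adjusted p = 1.3e-04, with an SE of 0.269), from 3.45 ± 0.156 to 1.29 ± 0.0572 CPM. EPHB3 had 223 and 185 counts against 83 and 93, and fell by 1.2 (adjusted p = 7.2e-07, with an SE of 0.151), from 10.4 ± 1.08 to 4.54 ± 0.419 CPM. EPHB4, whose main ligand is EFNB2 and which was the highest of the EPHB receptors per kilobase, had 1315 and 1152 counts in shNC and 1389 and 1366 in shMETTL14 libraries. It rose by 0.17 (adjusted p = 0.0142, with an SE of 0.0557), from 63.1 ± 4.11 to 71.0 ± 0.026 CPM, a call lost with upper quartile scaling, library size alone, DESeq2, or without shNC library 2 (0.11). EPHB1 had 2 to 5 counts and EPHB6 had 3 to 12.

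The SLIT and ROBO genes that were called all fell. These were 1 of 2 SLITs tested and 3 of 3 ROBO receptors tested, against 25.3% of all genes that fell. SLIT1 had 87 and 68 counts in shNC and 17 and 23 in shMETTL14 libraries. It fell by 1.94 in log2 units (adjusted p = 5.6e-06, with an SE of 0.283), from 3.96 ± 0.575 to 1.03 ± 0.231 CPM, and shares exons with the readthrough gene ARHGAP19-SLIT1. SLIT3 was by far the most abundant SLIT, with 96.1% of the summed level per kilobase in shNC libraries, and was not called (-0.09, adjusted p = 0.0857), though 3 of 7 alternative settings called it lower. SLIT2 was not tested, with 1 and 2 counts in shNC and 4 and 9 in shMETTL14 libraries. Of the receptors, ROBO2 had 1916 and 1865 counts against 869 and 865. It fell by 1.12 (adjusted p = 1.4e-13, with an SE of 0.0522), from 96.8 ± 0.896 to 44.7 ± 0.398 CPM. ROBO3, which is known for the midline crossing of axons, fell by 0.88, from 393 and 388 to 213 and 208 counts, and ROBO1 by 0.23. ROBO1 and ROBO2 are neighbours on chromosome 3, 947 kb apart. ROBO4, the endothelial member, had 0 to 2 counts.

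The netrin system had receptors but little ligand. NTN1 had 0, 0, 1 and 2 counts in the shNC and then the shMETTL14 libraries, NTN4 had 0, 0, 0 and 2, and DCC had 0, 0, 1 and 1. NTN3 had 42 and 70 counts in shNC and 19 and 26 in shMETTL14 libraries. It fell by 1.3 in log2 units (adjusted p = 0.00197, with an SE of 0.327), from 2.88 ± 1.09 to 1.16 ± 0.269 CPM. Without shNC library 2 the difference was -0.85 and was no longer called, so the NTN3 call rests on that library. All 4 UNC5 receptors were called, against 52.5% of all genes. The split was even, with 2 higher (50.0%, against 27.2%) and 2 lower (50.0%, against 25.3%). UNC5A fell by 0.64, from 997 and 973 to 610 and 642 counts, and UNC5C by 0.24. UNC5B, the most abundant per kilobase, rose by 0.14, called in 4 of 7 alternative settings. UNC5D had 208 and 249 counts in shNC and 278 and 297 in shMETTL14 libraries and rose by 0.34 (adjusted p = 0.019, with an SE of 0.117), from 11.7 ± 1.82 to 14.8 ± 0.872 CPM. That call was lost with upper quartile scaling, with DESeq2, and without shNC library 1 (0.18) or shMETTL14 library 2 (0.29). Of the symbol matches outside the families, UNC5CL fell by 0.63 and UNC50 was not called (0.07).

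In all, 15 of the 71 genes could not be tested, and 11 of these had at most 3 counts in every library. At this depth a difference in them was not detectable.

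Other parts of the guidance pathway were read from a pair of lists. Of 42 other guidance cues and co-receptors, 31 were tested, of which 9 rose and 11 fell (median log2 fold change -0.06), a split that became 8 and 15 under upper quartile scaling. The share that rose was near the 27.2% of all genes that rose, and the 11 that fell are 35.5%, against 25.3% of all genes that fell. The largest increases were in LRRC4, a synaptic ligand of netrin-G (1.12), the adhesion molecule L1CAM (1.01) and the latrophilin ADGRL1 (0.49). The largest decreases were in LRIG1, a regulator of receptor tyrosine kinases (-1.75), the adhesion molecule DSCAML1 (-1.57) and NEO1, a netrin and RGM receptor related to DCC (-0.98). NEO1 went from 564 and 533 to 252 and 299 counts.

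Of 74 intracellular guidance effectors, 71 were tested, of which 33 rose (46.5%, against 27.2% of all genes) and 16 fell (22.5%, against 25.3%), with a median log2 fold change of 0.13. The split was 26 and 18 under upper quartile scaling and 24 and 11 by DESeq2. The median over all genes was -0.000953. The largest increases were in DPYSL3, a collapsin response mediator protein (1.08), LIMK1, the kinase that phosphorylates cofilin (0.93), and MICAL2, which oxidises actin (0.89). The largest decreases, leaving out genes whose mean log2 CPM was under 2, were in GRIP1, a PDZ adaptor that binds ephrins B (-1.92), CFL2, a cofilin (-0.86), and the RAC activator DOCK1 (-0.53). GRIP1 had 442 and 432 counts in shNC and 123 and 106 in shMETTL14 libraries.

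**Figure D4:**
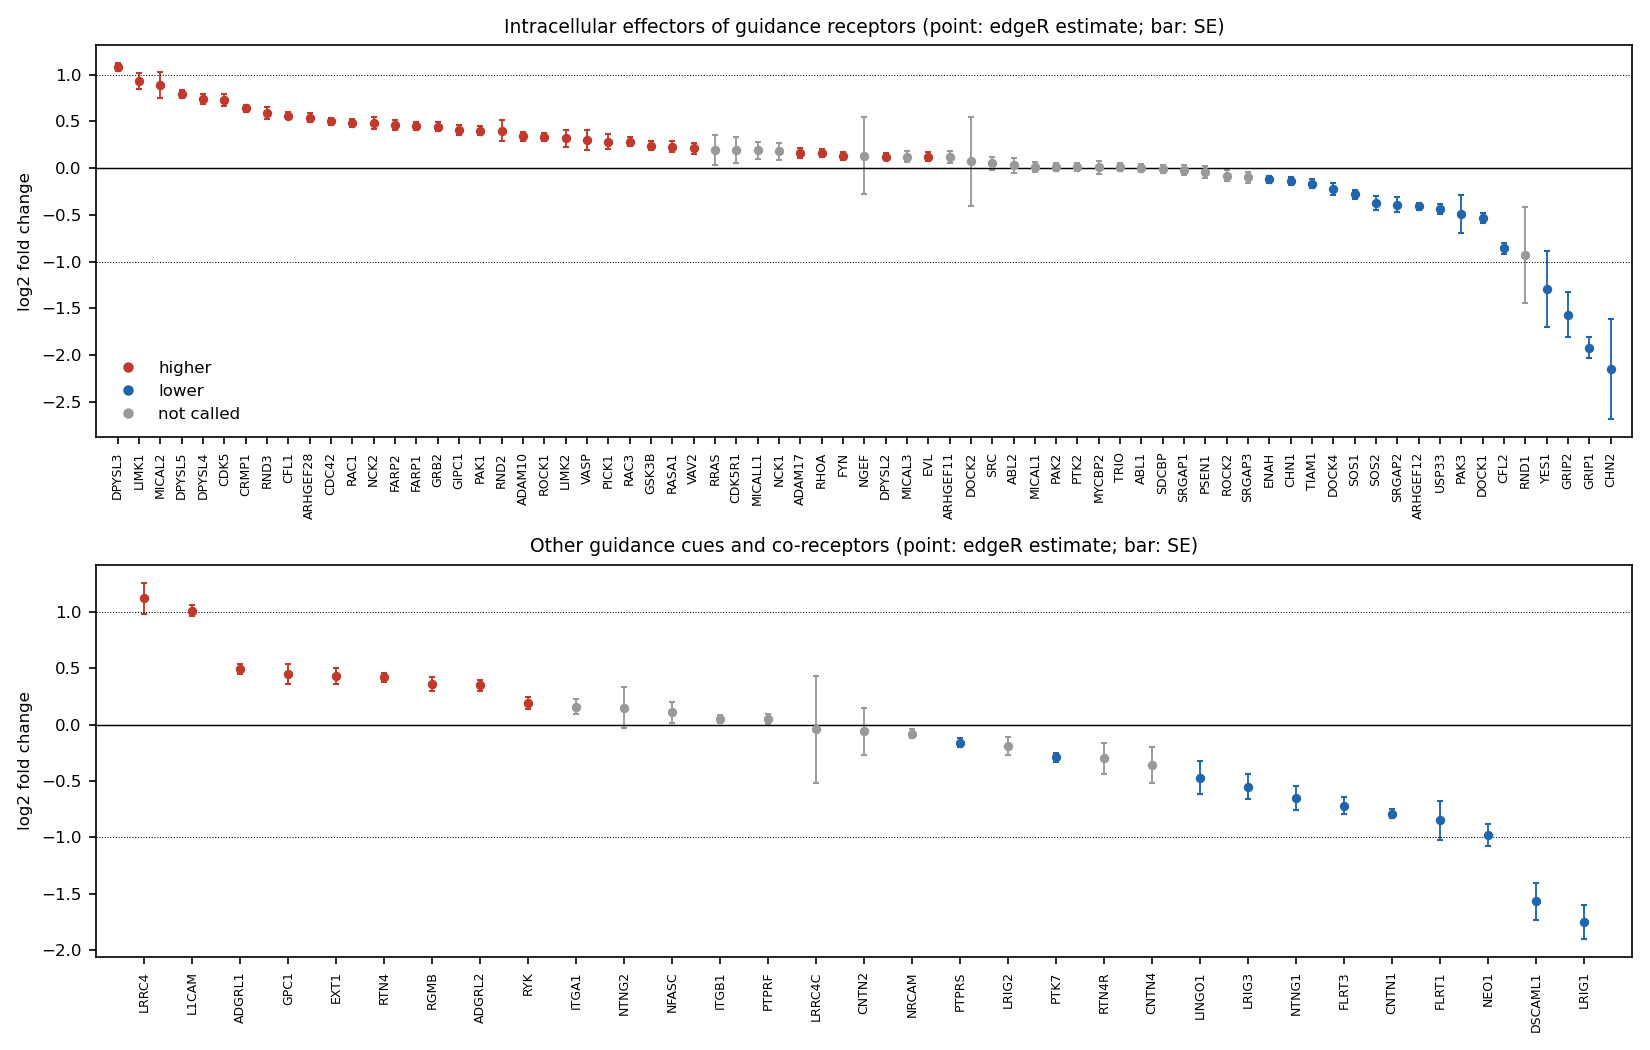
Log2 fold change (y axis, shMETTL14 over shNC; points are edgeR estimates, bars are SE) of the tested genes of the effector list (71, upper panel) and of the list of other cues and co-receptors (31, lower panel), ordered by value and coloured by call. DPYSL3 at 1.08 and LRRC4 at 1.12 lie at the upper ends.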

How the data were processed

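RNA was extracted from SK-N-BE(2) cells, and libraries were read as 150-base paired ends on an Illumina NovaSeq. The authors deposited raw counts per Ensembl gene ID. The submitters' processing notes name HISAT2 2.1.0, StringTie 1.3.6, HTSeq 0.13.5 and edgeR, with GRCh38/hg38. The annotation release and strand setting are not given in the sources used here, so reads of overlapping genes on opposite strands cannot be told apart. Of the 71 genes, 46 overlap another gene and 27 share exon bases with one. Lines naming no gene held 19.1% to 19.86% of counts and were left out.

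Of 60671 IDs, 60647 had a symbol, and 58453 were in GENCODE 29 (GRCh38), the source of coordinates and lengths. Counts were tested with edgeR 4.0.16 in R 4.3.3 (quasi-likelihood F-test, TMM, filterByExpr with minimum count 10 and total 15, group as the only term), with Benjamini-Hochberg adjustment over 16309 genes and calls at 0.05. SE came from the F statistic, intervals (95%) from the t distribution, and CPM was computed after TMM scaling. An exact permutation test of 2 against 2 libraries cannot go below p = 0.333. Mean chi-square per gene was 2.8 and 2.3 within groups and 34.1 to 35.2 between them, so no library was treated as a duplicate. The procedure was tested on simulated data. Alternatives were RLE, upper quartile or no scaling, other count filters, DESeq2 1.42.0, a replicate block, each library left out and a 1.5-fold limit.

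The genes and lists were chosen with earlier results of these data known. Values in full were given for called genes with at least 2-fold change, the largest called increase and decrease in each of semaphorins, plexins with neuropilins, ephrins, EPH receptors, SLITs with ROBOs, and netrins with DCC and UNC5, and METTL14. Each list contributed its 3 largest called increases and decreases with mean log2 CPM of at least 2. A marker of another cell type is not reported here.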

Additional observations from a re-analysis of the deposited data

How the results depend on the processing

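The number of guidance genes called was 37 in the reported fit and 28 to 38 under other scalings, filters and DESeq2, and the count with at least 2-fold change was 14 under each of these. With a 1.5-fold limit the latter count was 25. Leaving out 1 library gave a METTL14 log2 fold change of -1.31 to -1.21 and a median of the guidance genes of -0.171 to -0.115. In these fits the lone library was assumed to vary like the other group. The median of the guidance genes was -0.114 in the reported fit, -0.182 under upper quartile scaling and -0.159 when only library size was used. Without a filter on low counts it was -0.0788, taken over 69 genes rather than 56. Upper quartile scaling moved all well-expressed genes by -0.0676, and library size alone by -0.0451. Dropping the filter moved them by 0.0104. For the other moves the cause was not tested.

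With a replicate block the counts were 37 and 14, with 54.7% of all genes called. Libraries with the same number deviated together only weakly (Pearson 0.0717, Spearman 0.0417 across genes, which are not independent replicates), so the numbers were not taken to pair them. Of 119 comparisons of the 17 genes given in full under other settings, 114 kept direction and call, and 5 lost the call (EPHB4 in 3, UNC5D in 2). Of 68 with 1 library left out, 64 kept both and 4 lost the call (UNC5D in 2, EPHB4 and NTN3 in 1 each), with 0 reversed. The member highest per kilobase was the same in 9 of 11 systems with the length of the longest coding transcript, and differed for EPHA receptors and semaphorins. Counting depth left 15 genes untested.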

Other observations

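The collapsin response mediator proteins, cytosolic proteins that relay semaphorin signals to the cytoskeleton, were all higher in the shMETTL14 libraries. DPYSL3 went from 3339 and 3286 counts in shNC to 7032 and 6855 in shMETTL14 libraries (log2 fold change 1.08). DPYSL5 rose by 0.79, DPYSL4 by 0.74, CRMP1 by 0.64 and DPYSL2 by 0.12, each called at an adjusted p under 0.05 by edgeR. The DPYSL2 call held in 5 of 7 alternative settings, where its lowest log2 fold change was 0.05, and the others held in all 7. The family was picked out after its values were seen.

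GGACT, a common form of the sequence context of m6A, was counted in the longest coding transcript of each gene. The median was 1.17 words per kilobase over the 56 tested guidance genes and 0.939 over 12832 tested coding genes. It was 1.17 over the 14 that rose, 1.1 over the 23 that fell and 1.21 over the 19 not called. The median was 1.19 over the 5 that rose at least 2-fold and 1.15 over the 9 that fell at least 2-fold. Among the 5, EFNB2 held 1.8 words per kilobase, PLXNA2 1.57, NRP1 1.19, PLXNA4 0.725 and SEMA3D 0.16. m6A itself was not measured in these libraries.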
